A study of Mus musculus with 14 samples.

Results

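The comparison described here sets 6 livers with high Cidea transcript against 6 livers with low Cidea transcript, chosen from the 14 livers of the series. High and low are not treatments. The livers were ranked within each diet by the quantile normalized signal of the 1 Cidea probe (ILMN_1215446). The top 3 of each diet formed the high class, the bottom 3 of each diet formed the low class, and the middle liver of each diet was not compared. All livers came from male C57Bl/6J mice, with no genetic change named in the labels. The mice had eaten an isocaloric diet that contained palatinose, a slowly digested isomer of sucrose, or sucrose itself. Each class therefore holds 3 livers from palatinose-fed and 3 from sucrose-fed mice. The titles give 22 weeks of feeding while the age label gives 18 weeks, so the age of the mice is uncertain. RNA from each liver was hybridised to its own array position of an Illumina mouse beadchip, and differences below are log2 intensities of high minus low. In such bulk tissue, fewer cells of a type and less RNA per cell cannot be told apart.

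CIDEA belongs to the CIDE family of lipid droplet proteins, which gather where droplets touch and let lipid pass into the larger one, so that droplets grow. CIDEB is the family member of normal hepatocytes, whereas Cidea and Cidec (also called Fsp27) are characteristic of fat cells and are induced in the hepatocytes of fatty mouse liver, partly through the nuclear receptor PPAR gamma. PPAR gamma also turns on genes of triglyceride synthesis and droplet coating in such livers, while SREBP-1c and ChREBP drive the synthesis of fatty acids from sugar.

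Cidea varied widely between mice of the same diet, and these values chose the classes, so they carry no test. On the log2 scale the high class held PAL_430_04 at 11.09, PAL_429_03 at 10.42 and PAL_418_07 at 10.39 with palatinose, and SUC_411_03 at 11.06, SUC_424_02 at 10.97 and SUC_417_01 at 9.62 with sucrose. The low class held PAL_407_04 at 8.59, PAL_417_03 at 8.52 and PAL_430_01 at 8.41, and SUC_423_04 at 8.62, SUC_415_02 at 8.09 and SUC_408_02 at 5.97. The lowest liver, SUC_408_02, thus lay far below every other liver of its class. The left-out livers were PAL_417_02 at 10.15 and SUC_421_03 at 8.64. The gap at the edge of a class was narrow in places. With palatinose, the quantile normalized signal was 1327 just inside the high class (PAL_418_07) and 1117 just outside it (PAL_417_02). With sucrose, it was 377 just inside the low class (SUC_423_04) and 382 just outside it (SUC_421_03). Because the ranking was made within diets, the high liver SUC_417_01 had less Cidea than the left-out palatinose liver. The authors' own normalized values gave the same class for all 14 livers.

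**Figure D1:**
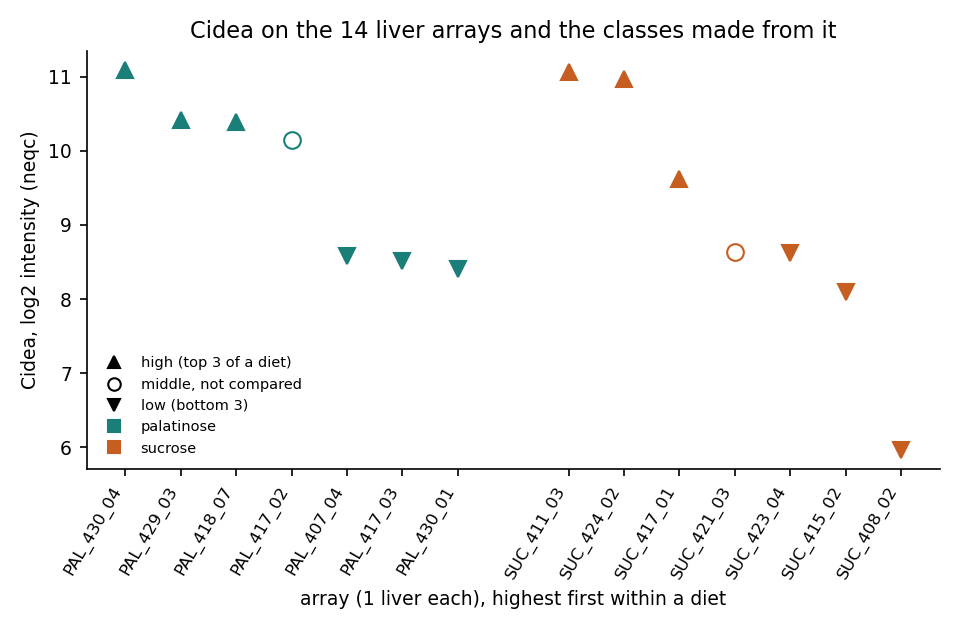
Log2 intensity of Cidea on each of the 14 arrays, palatinose at left and sucrose at right, ordered within a diet. Triangles pointing up mark the high class, triangles pointing down the low class and open circles the livers not compared; SUC_408_02 lies alone at 5.97.

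Arrays had a mean signal of 190 to 257 and 11457 to 12476 probes detected at a detection p-value under 0.05. Both maxima belong to SUC_424_02 of the high class, which was the brightest array. The next highest values were 215 (SUC_411_03) and 12007 (SUC_408_02). Of 8 hepatocyte markers 6 were bright in both classes, with summed signals over the list of 73145 to 81690 in the high class and 77778 to 84367 in the low class. The Alb probe was detected on 4 arrays with signals of 2 to 31 and the Tat probe on 0, as were the probes of Fabp1 and Cpt1a, so in this tissue an undetected probe does not show that its gene is silent. Transcripts of skeletal muscle or pancreas stood more than 1 log2 unit above the median array on PAL_429_03 of the high class, on PAL_407_04, PAL_417_03 and SUC_415_02 of the low class, and on the left-out SUC_421_03. Results that lead the text are therefore also given without these arrays, which leaves 5 high and 3 low livers. These 3 are SUC_408_02, SUC_423_04 and PAL_430_01, so PAL_430_01 is then the only low liver with palatinose. Cidea is itself a gene of brown fat, so fat cell markers were examined. The brown adipocyte markers Ucp1, Dio2 and Kcnk3, and the white adipocyte markers Fabp4, Plin1, Retn and Nnat, were detected on no array of either class. Slc2a4 was detected on PAL_429_03 alone, at a signal of 14. Adipoq, the fat cell hormone adiponectin, was detected on 1 high and 3 low livers and on 6 of 14 arrays, at signals of at most 20. Markers that were measured include Adipor2, Lpl, Elovl3 and Ppargc1b, which liver also expresses, and Cox7a1 and Cpt1b, which muscle also expresses. The white adipocyte marker Lep and the brown adipocyte marker Cox8b were measured too, and differed by -0.09 and -0.03. Summed signals over each list were 314 to 900 (brown) and 4071 to 5265 (white) in the high class, and 310 to 722 and 4115 to 4914 in the low class.

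Across all genes, no transcript passed the test between high and low Cidea livers. The limma fit called 0 of 8828 features at an adjusted p under 0.05 (0%), and the smallest adjusted p was 0.419. At an unadjusted p under 0.05 there were 524 features (5.94%), of which 301 (3.41%) were higher and 223 (2.53%) lower in the high class, where chance alone gives 441.4. Without the arrays that carried muscle or pancreas transcripts 328 (3.72%) were higher and 300 lower at that level. All 6 high livers lay above all 6 low livers for 18 features (0.204%) and below them for 6 (0.0680%), 24 in all (0.272%). The 95% interval of a feature lay within 1.5-fold in either direction for 93.6% of features and within 2-fold for 99.0%, each interval holding for 1 feature alone. For 8 features (0.0906%) the data gave an estimate over 2-fold. Genes below are therefore described by their values, and none of them passed the adjusted threshold in this split. The test of whether the difference depended on diet called 0 features (0%), with 155 (1.76%) at an unadjusted p under 0.05 and a smallest adjusted p of 1.00.

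Mogat1 had the smallest p of all features. It encodes a monoacylglycerol acyltransferase, which makes diacylglycerol on the way to triglyceride, and it is a PPAR gamma target in fatty mouse liver. Its log2 intensity ranged over 6.05, 6.39 and 6.75 (lowest, median and highest) in high livers, against 5.05, 5.57 and 5.81 in low livers. All 6 high livers thus lay above all 6 low livers. The means were 6.38 ± 0.25 in high and 5.49 ± 0.32 in low livers (SD, n = 6 each), a difference of 0.88 (95% interval 0.56 to 1.21, limma adjusted p = 0.419) or 1.84-fold. Mogat1 leads by its p on these livers, so its lack of overlap is no separate support. The difference was 0.92 with palatinose and 0.84 with sucrose. Without the arrays that carried muscle or pancreas transcripts it was 0.89, and leaving out any 1 array put it between 0.78 and 0.96. The left-out livers followed their own Cidea, with Mogat1 at 6.24 in PAL_417_02 and 5.67 in SUC_421_03.

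Slc13a4, which encodes a sodium-coupled sulfate transporter, came next by p on the same livers. It measured 5.07, 5.41 and 5.59 in high livers, against 4.61, 4.87 and 5.05 in low livers, again without overlap. The means of 5.39 ± 0.19 in high and 4.83 ± 0.18 in low livers (SD, n = 6 each) differed by 0.56 (0.33 to 0.79, limma adjusted p = 0.472). Its intensities were dim, and 13 of 14 arrays detected it. The difference was 0.41 with palatinose, 0.71 with sucrose, and 0.78 without the arrays that carried muscle or pancreas transcripts.

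A fit over all 14 livers with the log2 level of Cidea in place of the classes, which was an alternative to the split, called these 2 genes and no other of 8828 (0.0227%). There Mogat1 was higher by 0.33 log2 units per log2 unit of Cidea (0.24 to 0.41, limma adjusted p = 0.00345) and Slc13a4 by 0.21 (0.14 to 0.27, adjusted p = 0.0402). At an unadjusted p under 0.05 this fit had 971 features (11.0%). The liver with the least Cidea mattered for both. Without SUC_408_02 the fit called 0 features and Mogat1 had an adjusted p of 0.0513, while without any other single liver Mogat1 was called. Its slope then ran from 0.31 to 0.36. Slc13a4 was called without SUC_423_04, PAL_429_03 or PAL_430_01 and not without any of the remaining livers, where its adjusted p reached 0.192. Mogat1 alone was called without the arrays that carried muscle or pancreas transcripts, at an adjusted p of 0.0407. Without PAL_430_01 the fit called 6 features, which were Mogat1, Slc13a4, Tceal8, Rogdi, Slc39a11 and Osbpl3.

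**Figure D2:**
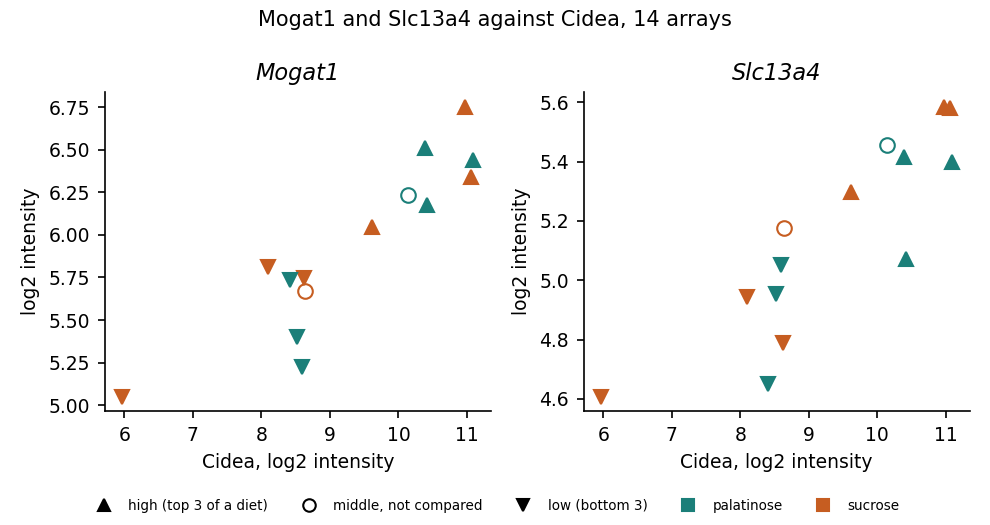
Log2 intensity of Mogat1 (left) and Slc13a4 (right) against that of Cidea on all 14 arrays, with symbols for the classes and colours for the diets. Both genes were higher in livers with more Cidea, by 0.33 and 0.21 log2 units per log2 unit of Cidea in a fit with diet as covariate, and SUC_408_02 stands alone at the left end.

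The 250 bases before the annotated start of both genes are shown because these genes led the comparison, from RefSeq on GRCm38.p6 and read 5' to 3' on the gene's strand (Mogat1, chr1:78510810-78511059, plus strand; Slc13a4, chr6:35308127-35308376, minus strand). Capitals mark a match, on either strand, to a pair of AGGNCA half-sites that point the same way with a single base of any kind between them, the DR1 type of repeat that PPAR receptors bind together with RXR.
Mogat1: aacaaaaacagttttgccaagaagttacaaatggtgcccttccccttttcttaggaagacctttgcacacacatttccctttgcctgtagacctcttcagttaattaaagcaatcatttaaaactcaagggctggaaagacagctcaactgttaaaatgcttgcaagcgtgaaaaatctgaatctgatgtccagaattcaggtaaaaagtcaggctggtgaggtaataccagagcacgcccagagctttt
Slc13a4: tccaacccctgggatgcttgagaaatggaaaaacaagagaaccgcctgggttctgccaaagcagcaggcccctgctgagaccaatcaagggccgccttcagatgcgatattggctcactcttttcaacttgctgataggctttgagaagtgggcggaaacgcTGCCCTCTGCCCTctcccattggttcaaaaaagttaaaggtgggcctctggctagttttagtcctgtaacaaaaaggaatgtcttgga
A match stood in 111 of 32851 windows of this length (0.338%), in Slc13a4 once, 88 to 76 bases before the start, and not in Mogat1 or in either window of Cidec. A match is a string of letters and no evidence of binding, and these windows leave out more distant sequence.

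Among lipid droplet proteins, a few had higher values in high Cidea livers and most differed little. Of 14 measured members 9 were higher and 5 lower, 3 were higher and 0 lower at an unadjusted p under 0.05, and 0 passed, with a median difference of 0.025 beside -0.0039 over all features. Cidec, the closest relative of Cidea in fat-laden cells, measured 7.24, 8.78 and 9.24 in high livers, against 6.95, 7.45 and 8.77 in low livers. The classes overlapped, because SUC_417_01 was low for a high liver at 7.24 and PAL_430_01 was high for a low liver at 8.77. Its means of 8.60 ± 0.71 in high and 7.59 ± 0.67 in low livers (SD, n = 6 each) differed by 1.01 (0.33 to 1.69, limma adjusted p = 0.761). The difference in Cidec was 0.67 without the arrays that carried muscle or pancreas transcripts. Plin4, a perilipin of fat cells that coats droplets, had 9.13, 9.75 and 10.33 in high livers, against 8.93, 9.21 and 9.72 in low livers. It differed by 0.50 (0.11 to 0.89, adjusted p = 0.779), with 5 of 6 high livers above the low mean. Fitm1, whose product helps droplets to form and is best known from muscle, differed by 0.40 (0.02 to 0.79), and by 0.68 without the arrays that carried muscle or pancreas transcripts.

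The droplet proteins that hepatocytes use most showed only small differences. Plin2, the main droplet coat of hepatocytes, had 10.51, 10.64 and 10.85 in high livers, against 10.46, 10.57 and 10.76 in low livers, a difference of 0.08 (-0.10 to 0.26). Cideb, the hepatocyte member of the CIDE family, differed by 0.03 (-0.12 to 0.18) and Plin3 by 0.02 (-0.24 to 0.27). For these 3 genes the classes covered almost the same range. Plin5, which ties droplets to mitochondria, differed by -0.15 (-0.47 to 0.18), and its other probe gave -0.27. G0s2, an inhibitor of the droplet lipase ATGL, differed by -0.22 (-0.64 to 0.20), and by -0.12 without SUC_424_02. Fitm2 differed by 0.14, Bscl2 (seipin, which shapes new droplets) by 0.09, Ldah by -0.11 (0.044 and 0.0099 on its other probes), and Aup1, Hilpda and Hsd17b11 by -0.03, -0.03 and 0.00073. The single Plin1 probe was detected on 0 arrays, and no probe is named here for Hsd17b13.

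Lipases differed little. All 9 measured lipases and cofactors had higher means in high livers, where 48.6% of all features did, with a median difference of 0.068, and 1 had an unadjusted p under 0.05. This was Ces1g, a carboxylesterase of liver, at 0.34 (0.01 to 0.66, limma adjusted p = 0.814). Pnpla2, the droplet lipase ATGL, differed by 0.02 (-0.20 to 0.25), its activator Abhd5 by 0.12, the lysosomal lipase Lipa by 0.19 (0.033 without SUC_424_02), Lipe by 0.07 and Mgll, the monoglyceride lipase, by 0.06. The shared sign rests on the probe chosen for a gene, since other Mgll probes gave -0.17 and 0.13. Pnpla8 differed by 0.06, Aadac by 0.07 and Ces1d by 0.04. Without the arrays that carried muscle or pancreas transcripts 7 of the 9 were higher, and the median was 0.044 without SUC_408_02.

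**Figure D3:**
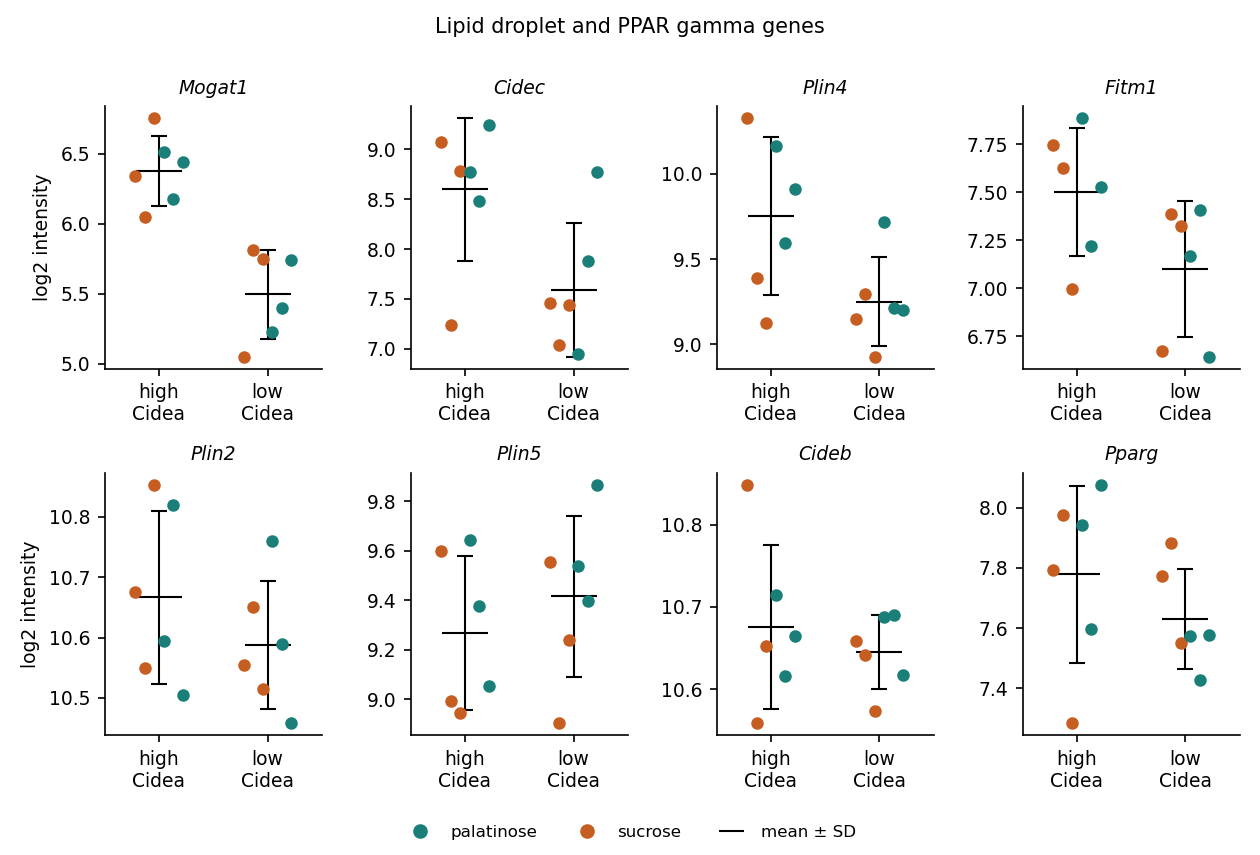
Log2 intensity of 8 droplet and PPAR gamma genes in high (left) and low (right) Cidea livers, with points for livers coloured by diet and bars for mean and SD (n = 6 each). Mogat1 separates the classes, Cidec and Plin4 are higher with overlap, and Plin2 and Cideb cover nearly the same range in both.

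Genes that PPAR gamma turns on in fat-laden liver had a higher median than all features. Of 6 measured members 5 were higher and 1 lower, 3 had an unadjusted p under 0.05 and all 3 of these were higher (Mogat1, Cidec and Plin4), and the median difference was 0.41. Pparg itself, the receptor, measured 7.28, 7.87 and 8.08 in high livers, against 7.43, 7.57 and 7.88 in low livers. It differed by 0.15 (-0.13 to 0.43), by 0.35 with palatinose and by -0.05 with sucrose, which an interaction test did not separate (limma adjusted p = 1.00). Vldlr, a lipoprotein receptor, differed by 0.31 (-0.05 to 0.68; 0.21 without SUC_424_02) and Lpl, lipoprotein lipase, by -0.04 (-0.67 to 0.59). Probes of Cd36, Fabp4 and Plin1 were detected on 0 arrays. Below the filter were also Aqp7, detected on at most 1 array, of the low class, and Adipoq, detected on 1 high and 3 low livers. No probe is named here for Cfd or Acsl1, so 6 of 13 listed genes stand for this group. The mean over the 6 was 7.48, 7.78 and 8.16 in high livers (lowest, median and highest), against 7.14, 7.23 and 7.77 in low livers.

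A wider list of genes raised in fatty mouse liver had 13 higher and 3 lower of 16 measured, with a median of 0.37 and 4 higher and 0 lower at an unadjusted p under 0.05. It shares Mogat1, Cidec, Plin4, Pparg, Vldlr and Lpl with the PPAR gamma list, so it is no separate evidence. Its median was 0.19 without the arrays that carried muscle or pancreas transcripts, with 3 higher and 1 lower at an unadjusted p under 0.05, and 0.24 without PAL_430_04. Its own leading member was Osbpl3, an oxysterol-binding protein, at 6.88 ± 0.40 in high and 6.35 ± 0.34 in low livers (SD, n = 6 each), a difference of 0.53 (0.12 to 0.94, limma adjusted p = 0.779). All 6 high livers exceeded the low mean of Osbpl3, and PAL_430_01 was the highest of the low class. Abcd2, a peroxisomal transporter, differed by 0.23 (-0.12 to 0.58), by 0.12 on its other probe and by 0.14 without PAL_429_03. Fgf21, a stress hormone of liver that is also on this list, differed by -0.53 (-1.15 to 0.09), and by -0.97 without the arrays that carried muscle or pancreas transcripts. Over the 16 genes PAL_430_01, which had low Cidea, had a mean of 8.72, which only PAL_430_04 of the high class exceeded, at 8.79; the median was 8.34 in high livers and 7.95 in low livers.

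Triglyceride synthesis as a whole showed no shared direction. Of 13 measured members, Mogat1 among them, 6 were higher and 7 lower, with a median of -0.015. Mogat1 was the 1 higher member and Agpat1 the 1 lower member at an unadjusted p under 0.05. Agpat1, an acyltransferase of the glycerol phosphate route, was dimmer in high livers at 4.80 ± 0.13, against 5.06 ± 0.10 in low livers (SD, n = 6 each), a difference of -0.26 (-0.43 to -0.09, limma adjusted p = 0.744). Gpat3 differed by 0.33 (-0.02 to 0.68), but by 0.012 on its other probe and by 0.21 without SUC_424_02. Dgat1, which makes the last step to triglyceride, differed by -0.20 (-0.088 without SUC_424_02) and Dgat2 by 0.13. In fatty acid uptake, 6 of 10 genes were higher and 1 had an unadjusted p under 0.05. This was Slc27a4, a fatty acid transport protein, at 5.51 ± 0.12 in high and 5.20 ± 0.10 in low livers (SD, n = 6 each), a difference of 0.31 (0.14 to 0.48, adjusted p = 0.636). Dbi, the acyl-CoA binding protein, differed by 0.14 (-0.0068 on its other probe), Acsl5 by 0.08 and Acsl3 by -0.10.

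Genes for the synthesis of fatty acids from sugar had mixed values. Of 18 measured members 11 were higher and 7 lower, with 2 higher and 0 lower at an unadjusted p under 0.05 and a median of 0.038. Acss2, which activates acetate to acetyl-CoA, measured 9.61, 9.98 and 10.11 in high livers, against 9.37, 9.56 and 9.63 in low livers, with a small overlap. The means differed by 0.41 (0.23 to 0.59, limma adjusted p = 0.472), while its other probe, detected on 7 arrays, gave 0.017. Thrsp, a lipogenic nuclear protein that responds to thyroid hormone and carbohydrate, measured 6.83, 8.32 and 9.17 in high livers, against 6.43, 7.14 and 8.19 in low livers. It differed by 0.99 (0.14 to 1.83, adjusted p = 0.814) with wide overlap, and by 1.27 without the arrays that carried muscle or pancreas transcripts. For the regulators and main enzymes named here the intervals included 0. Srebf1, which encodes SREBP-1c, differed by 0.04 (-0.22 to 0.30), Mlxipl, which encodes ChREBP, by -0.22 (-0.53 to 0.08; -0.11 without SUC_424_02), the desaturase Scd1 by 0.08 (-0.16 to 0.31) and Fasn, fatty acid synthase, by 0.04 (-0.17 to 0.24). Fasn was dim and detected on 7 arrays, so its interval does not bound the change of its RNA. No probe is named here for Acacb, and the Scd2 probe was detected on 0 arrays. Pklr, the liver pyruvate kinase, differed by 0.36 and by 0.15 on its other probe, and Mid1ip1, a partner of Thrsp, by -0.19.

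Fatty acid oxidation was balanced, with 12 higher and 11 lower of 23 measured and a median of 0.015. Slc25a20, the carnitine carrier of mitochondria, was the 1 member at an unadjusted p under 0.05. It measured 11.85, 11.88 and 12.02 in high livers, against 11.53, 11.79 and 11.82 in low livers, a difference of 0.16 (0.0012 to 0.31, limma adjusted p = 0.814) with no overlap. Ppara, the receptor that drives this group, differed by 0.09 (-0.27 to 0.44), Decr1 by -0.32 and Acot3 by 0.34 (0.15 without SUC_408_02). Decr1 differed by -0.10 without SUC_424_02, whose value was far below those of the other high livers. Cholesterol synthesis had 14 higher and 3 lower members of 17, with a median of 0.11. Dhcr7, of the last step to cholesterol, differed by 0.38 (0.06 to 0.69, adjusted p = 0.814), Msmo1 by 0.38 (-0.17 to 0.92), Nsdhl by 0.24 and Lss by 0.18. Other Nsdhl probes gave 0.094, 0.083 and 0.28. These values leaned on the low liver PAL_430_01: without it Msmo1 differed by 0.25, Nsdhl by 0.12 and Lss by 0.073, and the list had 8 higher members of 17 and a median of -0.0066. The median of this list was 0.26 without the arrays that carried muscle or pancreas transcripts, a fit that keeps PAL_430_01.

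Apolipoproteins and lipoprotein assembly had 4 higher and 13 lower members of 17, with a median of -0.030. Apom, an apolipoprotein of HDL that carries sphingosine phosphate, measured 9.56, 10.40 and 10.50 in high livers, against 10.34, 10.64 and 10.94 in low livers, a difference of -0.41 (-0.74 to -0.08, limma adjusted p = 0.789). Angptl8, an inhibitor of lipoprotein lipase that feeding induces, differed by -0.44 (-0.81 to -0.06). Pltp, which moves phospholipid between lipoproteins, differed by 0.67 (0.04 to 1.30), with all 6 high livers above the low mean. Apom differed by -0.27 without SUC_424_02, its lowest high liver. Tm6sf2 differed by -0.15 (-0.10 without PAL_430_01), and Mttp, which loads lipid onto apolipoprotein B, by 0.01 (-0.23 to 0.25).

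Several acute phase transcripts had higher values in high Cidea livers, and others differed little. Of 20 measured acute phase genes 14 were higher and 6 lower, 6 were higher and 0 lower at an unadjusted p under 0.05, and the median was 0.07. Lcn2, lipocalin 2, which withholds iron siderophores from bacteria, measured 7.37, 8.58 and 9.34 in high livers, against 6.18, 7.07 and 7.88 in low livers. Its means of 8.48 ± 0.71 in high and 7.04 ± 0.56 in low livers (SD, n = 6 each) differed by 1.44 (0.76 to 2.13, limma adjusted p = 0.534) or 2.72-fold. The classes overlapped slightly, and the difference was 0.95 with palatinose and 1.94 with sucrose (interaction adjusted p = 1.00). Orm2, an orosomucoid or alpha-1-acid glycoprotein of plasma, measured 9.22, 9.71 and 10.23 in high livers, against 8.82 ± 0.34 in low livers (8.25, 8.87 and 9.23), a difference of 0.91 (0.49 to 1.32, adjusted p = 0.472). Saa2, serum amyloid A, measured 5.76, 6.14 and 7.01 in high livers, against 4.79, 5.49 and 5.71 in low livers, with no overlap and a difference of 0.90 (0.40 to 1.41, adjusted p = 0.636). The pentraxin Apcs differed by 0.55 (0.26 to 0.84), Orm1 by 0.44 (0.18 to 0.70) and Saa1 by 0.83 (0.24 to 1.41). Orm1 and Orm2, and likewise Saa1 and Saa2, are close copies of each other, so their probes may share signal.

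Other acute phase proteins of the same plasma response differed little. Haptoglobin (Hp) measured 13.97, 14.02 and 14.20 in high livers, against 13.76, 13.99 and 14.22 in low livers, a difference of 0.06 (-0.11 to 0.22). Fibrinogen gamma (Fgg) differed by -0.19 (-0.39 to 0.0016), Crp by 0.12 (-0.23 to 0.48), Serpina3n by 0.07 and Saa3 by -0.04. Neutrophils also make Lcn2, and 3 of their 10 listed markers were measured. Of these 1 was higher and 2 lower in high livers, with a median of -0.18. Summed signals over the list were 43 to 172 in high and 54 to 186 in low livers. The part of neutrophils in the Lcn2 values was not tested. Without the arrays that carried muscle or pancreas transcripts Lcn2 differed by 1.47, Orm2 by 1.04, Saa2 by 1.05, Saa1 by 0.82, Orm1 by 0.45 and Apcs by 0.37. Of all 20 genes 12 were then higher, 4 of them at an unadjusted p under 0.05 (3.72% of all features), with a median of 0.039. The median of the acute phase list was 0.0065 without SUC_424_02.

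**Figure D4:**
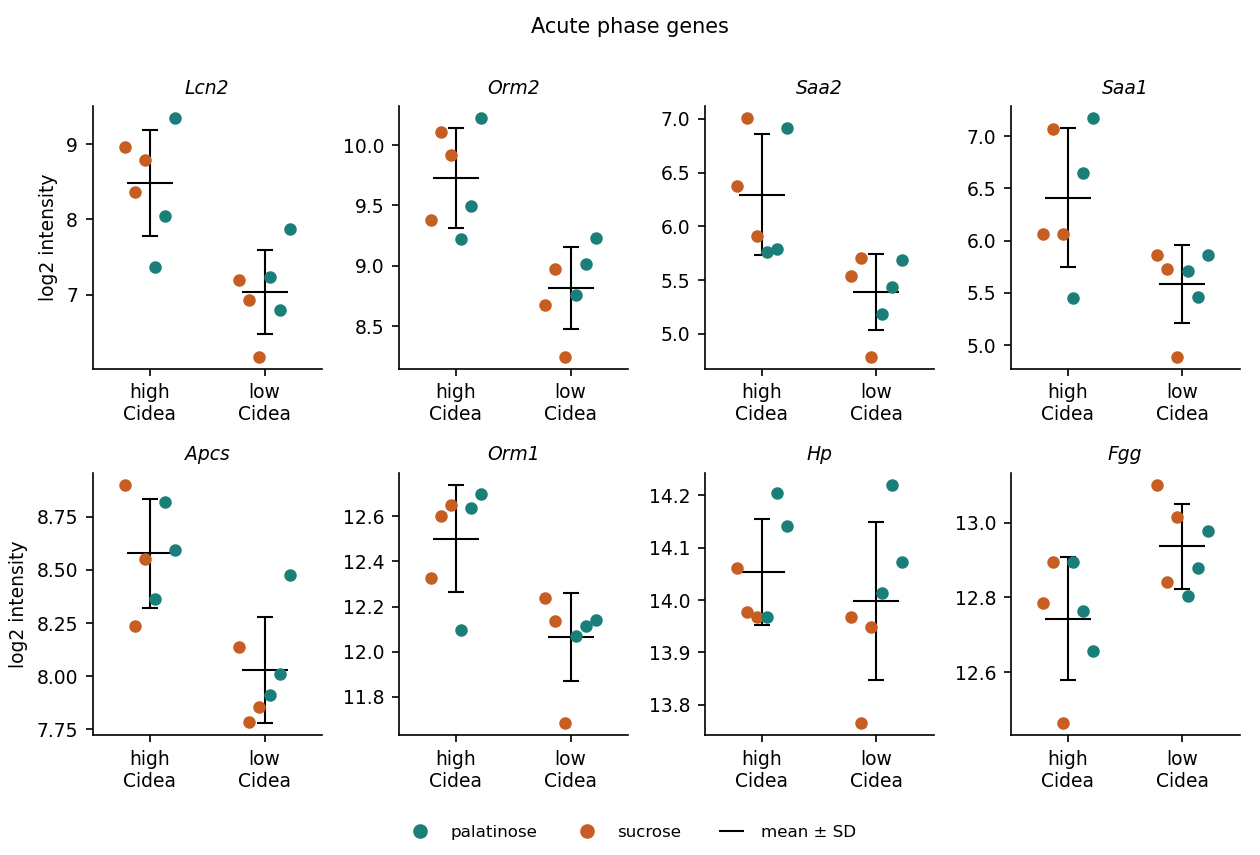
Log2 intensity of 8 acute phase genes in high (left) and low (right) Cidea livers, with points for livers coloured by diet and bars for mean and SD (n = 6 each). Lcn2, Orm2, Saa2, Saa1, Apcs and Orm1 have higher means in high livers, whereas Hp and Fgg differ by 0.06 and -0.19.

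The windows of the 3 acute phase genes with the largest differences are shown because they had higher values together. They are again from RefSeq on GRCm38.p6 and 5' to 3' on the gene's strand (Lcn2, chr2:32387740-32387989, minus strand; Orm2, chr4:63362199-63362448, plus strand; Saa2, chr7:46751583-46751832, plus strand). Capitals mark matches on either strand to TTNCNNAA, a short form of the site bound by C/EBP factors, which act in the acute phase response.
Lcn2: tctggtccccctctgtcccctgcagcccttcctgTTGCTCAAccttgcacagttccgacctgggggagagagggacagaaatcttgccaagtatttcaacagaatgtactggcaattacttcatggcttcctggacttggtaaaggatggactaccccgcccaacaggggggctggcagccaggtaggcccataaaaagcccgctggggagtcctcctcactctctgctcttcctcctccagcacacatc
Orm2: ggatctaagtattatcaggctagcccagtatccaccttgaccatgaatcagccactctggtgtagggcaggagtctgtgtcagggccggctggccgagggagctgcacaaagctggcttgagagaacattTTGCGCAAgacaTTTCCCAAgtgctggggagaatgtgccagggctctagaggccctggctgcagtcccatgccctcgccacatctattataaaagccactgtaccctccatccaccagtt
Saa2: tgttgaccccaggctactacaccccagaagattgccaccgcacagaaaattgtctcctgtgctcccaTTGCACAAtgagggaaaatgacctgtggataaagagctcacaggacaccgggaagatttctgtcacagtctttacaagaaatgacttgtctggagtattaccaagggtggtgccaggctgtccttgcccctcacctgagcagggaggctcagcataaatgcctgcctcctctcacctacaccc
Lcn2 and Saa2 held 1 match each and Orm2 held 2, and 36.8% of all 32851 windows of 250 bases hold at least 1. The window of Apcs, whose p was smaller than that of Saa2, is not shown. It held none of these and 1 match to TTCNNNGAA, a STAT type of site that 7.02% of windows hold. A TATAAA box stood 33 to 28 bases before the start of Orm2, and 12.4% of windows hold those letters.

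Most fibrosis genes had higher values in high Cidea livers. Of 16 measured members 14 were higher and 2 lower, where 48.6% of all features were higher. At an unadjusted p under 0.05, 6 were higher (3.41% of all features) and 0 lower. The median was 0.35, with 0.54 for sucrose and 0.16 for palatinose. Without the arrays that carried muscle or pancreas transcripts 4 were higher and 1 lower at that level, and the median was again 0.35. Lgals1, galectin 1, measured 9.08, 9.72 and 10.15 in high livers, against 8.21, 8.79 and 9.60 in low livers, a difference of 0.84 (0.37 to 1.31, limma adjusted p = 0.636) with overlap. Lum, a proteoglycan that binds collagen, differed by 0.51 (0.17 to 0.84), by 0.19 with palatinose and by 0.82 with sucrose (interaction adjusted p = 1.00). Col4a1, a chain of basement membrane collagen, differed by 0.43 (0.09 to 0.77) and by 0.30 without SUC_424_02. Sparc, a matrix protein, differed by 0.40 (0.07 to 0.74), and its other probe gave 0.30. Tgfb1 differed by -0.12. Markers of stellate cells, the matrix-producing cells of liver, were also mostly higher, with 7 higher and 1 lower of 8 and a median of 0.21. Their summed signals were 4696 to 8689 in high and 4310 to 5665 in low livers, and Dcn and Col3a1 stand on both lists. Their part in the fibrosis values was not tested. The mean over the 16 fibrosis genes was 6.41, 6.78 and 7.14 in high livers, against 6.31, 6.44 and 6.95 in low livers, where PAL_430_01 had the 6.95.

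Markers of Kupffer cells, the resident macrophages of liver, were lower in high Cidea livers. All 9 measured members were lower, with a median of -0.27, and 1 had an unadjusted p under 0.05 (2.53% of all features were lower at this level). Marco, a scavenger receptor, measured 4.46, 5.15 and 6.47 in high livers, against 5.14, 6.08 and 7.80 in low livers, a difference of -1.03 (-2.01 to -0.05, limma adjusted p = 0.814). Not every array detected it, so it may have passed the filter of 7 arrays mainly through the low livers. Timd4, a receptor for dying cells on long-lived Kupffer cells, differed by -0.36, Adgre1 (F4/80) by -0.60 and the Kupffer lectin Clec4f by -0.20. Other probes gave -0.36 for Adgre1 and -0.052 for Clec4f. Single low livers carried much of these values: without PAL_417_03 Marco differed by -0.66 and Timd4 by -0.22, and without PAL_430_01 Adgre1 differed by -0.35, Clec4f by -0.056 and the median of the list was -0.056. The mean over the 9 markers was 6.64, 7.42 and 7.55 in high livers, against 6.84, 7.65 and 8.34 in low livers. The low livers PAL_430_01, SUC_408_02 and PAL_417_03 had 8.34, 8.30 and 8.01, above every high liver, and the other low livers lay within the high range. Without the arrays that carried muscle or pancreas transcripts all 9 were again lower, with a median of -0.43. Of these 4 had an unadjusted p under 0.05, where 300 of all 8828 features were lower at that level. The low livers left there include PAL_430_01 and SUC_408_02, those with the highest means, so the larger median is no separate support.

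Antioxidant and drug-metabolising genes had mostly higher values, by medians that varied with the arrays used. Of 20 NRF2 and glutathione genes 16 were higher and 4 lower, 3 were higher and 0 lower at an unadjusted p under 0.05, and the median was 0.18. Without the arrays that carried muscle or pancreas transcripts 12 were higher and 8 lower, with a median of 0.071. The glutathione transferases Gstm2, Gstt3, Gstm4 and Gstm6 differed by 0.48 (0.12 to 0.84), 0.39 (0.05 to 0.72), 0.31 (0.05 to 0.58) and 0.24 (-0.02 to 0.50). Gstm4 differed by 0.14 without those arrays. Their sequences are alike, so probes may share signal. In the xenobiotic list 12 of 14 were higher, with a median of 0.19 and 1 member at an unadjusted p under 0.05. Without the arrays that carried muscle or pancreas transcripts 13 were higher, with a median of 0.38. Of these 7 had an unadjusted p under 0.05, where 3.72% of all features were higher at that level. SUC_408_02 is among the low livers of that fit, and leaving out SUC_408_02 alone gave a median of 0.096. Its member with the widest spread was the cytochrome P450 Cyp2b9, a female-biased gene of mouse liver, at 6.55, 8.08 and 10.01 in high livers, against 4.77, 7.03 and 8.74 in low livers. Cyp2b9 differed by 1.37 (-0.15 to 2.89, limma adjusted p = 0.814) with broad overlap, and by 0.86 without SUC_408_02. Cyp3a25 differed by 0.25, Cyp2c38 by 0.29 (0.19 without SUC_424_02) and Cyp2a5 by 0.34 (0.21 without SUC_408_02). The other female-biased genes named by rule were Fmo2 at 0.14 and again Abcd2 and Acot3.

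Male-biased genes were mixed, with 11 higher and 7 lower of 18, a median of 0.03, and 0 higher and 3 lower at an unadjusted p under 0.05. This tally turned with the arrays used. Leaving out the arrays that carried muscle or pancreas transcripts gave 14 higher and 4 lower, with a median of 0.20. At an unadjusted p under 0.05, 5 were then higher and 2 lower, with Cyp4a12a at 0.79 and Hsd3b5 at 1.38. PAL_430_01 was the only low liver with palatinose in that fit. Leaving out PAL_430_01 alone gave 5 higher members and a median of -0.087, with Cyp4a12a at 0.20. Gstp1, a glutathione transferase, had the smallest p of all lower genes. It measured 12.10, 12.25 and 12.51 in high livers, against 12.50, 12.73 and 13.00 in low livers, a difference of -0.45 (-0.66 to -0.25, limma adjusted p = 0.472). The ranges overlapped only at their edge, and 2 other Gstp1 probes gave -0.43 and -0.23. Serpina1e, an alpha-1-antitrypsin copy, differed by -0.63 (-1.05 to -0.22), complement C6 by -0.22 (-0.44 to -0.01), and Cyp4a12a by 0.39 (-0.09 to 0.86). Hsd3b5, a male-specific steroid dehydrogenase, differed by 0.02 (-2.05 to 2.09), and PAL_430_01 had only 4.32, which no other liver approached. Socs2, a gene that growth hormone induces, differed by 0.15 (-0.56 to 0.86) and turned sign under several alternatives.

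Signalling and stress genes showed single differences. Stat5a, a transcription factor downstream of growth hormone, measured 6.63, 6.73 and 6.86 in high livers, against 6.07, 6.43 and 6.71 in low livers, a difference of 0.34 (0.14 to 0.53, limma adjusted p = 0.636). Its other probe, detected on 14 arrays, gave 0.063. The difference was 0.14 with palatinose and 0.54 with sucrose, with an interaction adjusted p of 1.00. Irs2, an adaptor of the insulin receptor, differed by -0.44 (-0.95 to 0.07), and by -0.20 without SUC_424_02. Irs1 differed by -0.21 (-0.14 without SUC_424_02) and Trib3, a stress-induced pseudokinase, by 0.27 (0.17 without SUC_408_02). Pck1, of gluconeogenesis, differed by -0.06 (-0.52 to 0.40). Asns, asparagine synthetase, was dim in high livers and not detected on every array. It may have passed the filter of 7 arrays mainly through the low livers. It measured 4.43, 4.79 and 5.21 in high livers, against 4.74, 5.62 and 7.87 in low livers. It differed by -0.998 (-1.93 to -0.07, adjusted p = 0.814), and by -0.53 without SUC_408_02 and -1.66 without the arrays that carried muscle or pancreas transcripts. Its regulator Atf4 differed by -0.11 and Xbp1, of the unfolded protein response, by -0.18 (-0.086 without SUC_424_02).

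**Figure D5:**
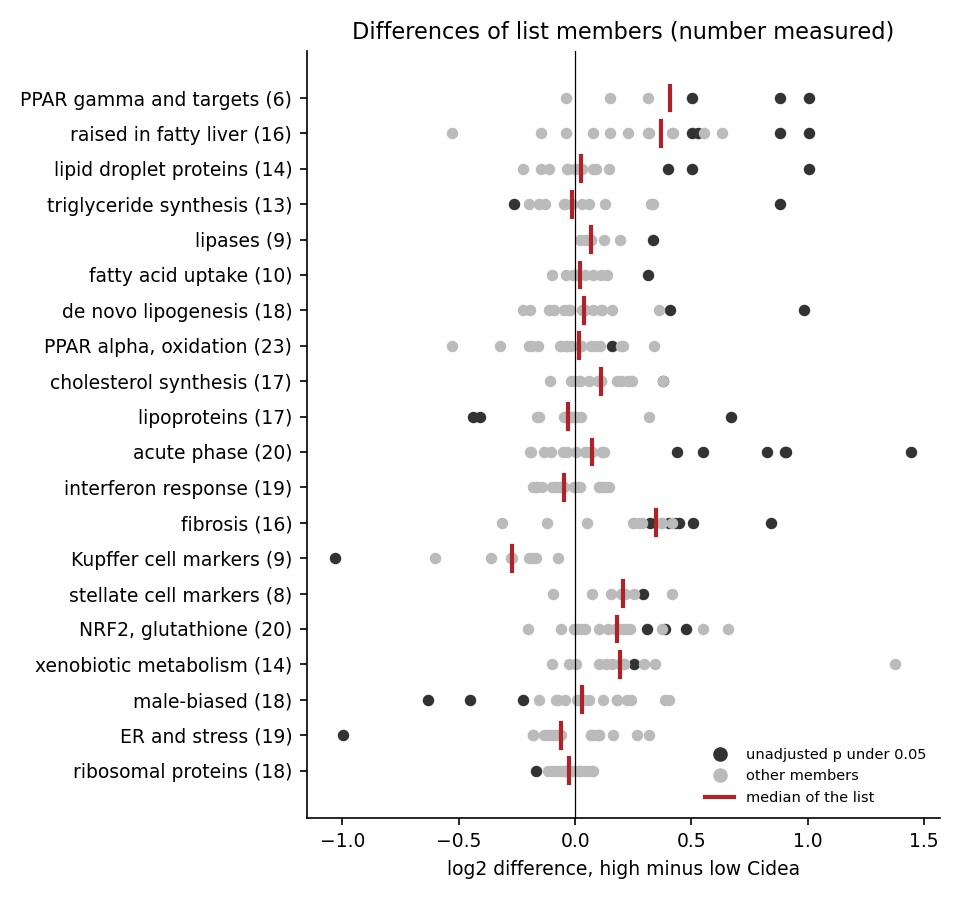
Log2 difference, high minus low Cidea, of each measured member of 20 gene lists, with the number measured in brackets. Dark points have an unadjusted p under 0.05, none passed after adjustment, and the bar is the median. The PPAR gamma (0.41), fatty liver (0.37) and fibrosis (0.35) lists have the highest medians and Kupffer cell markers (-0.27) the lowest in this fit, an order that changes without the arrays that carried muscle or pancreas transcripts (fatty liver 0.19, xenobiotic 0.38).

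The other genes with the smallest p were of varied function. Sult5a1, a sulfotransferase, measured 5.86, 6.03 and 6.41 in high livers, against 5.05, 5.41 and 6.00 in low livers, a difference of 0.67 (0.36 to 0.98, limma adjusted p = 0.472). Lower in high livers were the homeobox gene Hoxc10 (-0.38, adjusted p = 0.614), Porcn, which attaches lipid to Wnt proteins (-0.31), the cytochrome P450 Cyp2d13 (-0.40) and Csrp2, a LIM domain protein of contractile cells (-0.46). Hoxc10 was dim, at 4.28 to 4.65 in high and 4.72 to 5.05 in low livers, and detected on 7 arrays. It may have passed the filter of 7 arrays mainly through the low livers, so its lack of overlap is no support. For each of these 5 genes all 6 high livers lay on the same side of the low mean, but their p on these livers chose them.

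A lack of overlap on these livers chose the next genes, and the number that chance would give was not estimated. Of the 24 features whose classes did not overlap (0.272%), 22 are named genes, 16 above and 6 below. Those above include Rdh16, a retinol dehydrogenase, at 9.27 ± 0.23 in high and 8.76 ± 0.14 in low livers (SD, n = 6 each), a difference of 0.50 (0.27 to 0.73, limma adjusted p = 0.472). Ppargc1b, a coactivator of mitochondrial and lipogenic genes, differed by 0.32 (0.10 to 0.53), Mfn2, of mitochondrial fusion, by 0.21 and Sdhaf1, which assembles respiratory complex II, by 0.24. The chitinase-like Chil1 differed by 0.64 but was detected on 7 arrays only, at 4.72 to 5.83 in high and 4.32 to 4.60 in low livers. It may have passed the filter of 7 arrays mainly through the high livers, so its lack of overlap is no support. Prkdc and Chek2, kinases of the DNA damage response, differed by 0.31 (-0.020 on the other Prkdc probe) and 0.32, the replication gene Orc6 by 0.18 and Pts, of tetrahydrobiopterin synthesis, by 0.24. Both kinase genes were dim, and Prkdc was detected on 12 arrays and Chek2 on 10. Igsf11 differed by 0.33, and by -0.033 and 0.20 on its other probes. Kdm1b and Lrrc8d differed by 0.25 and 0.20. Those below include Irf2bp1, a transcriptional corepressor, at -0.28, Cnot2, of the deadenylase complex, at -0.21 (-0.14 and -0.10 on its other probes), Atp6v0b, of the vacuolar proton pump, at -0.25, Ap1g1, of clathrin coats, at -0.17, and the splicing helicase Dhx38 at -0.20. The 8 features past 2-fold were Lcn2, Cyp2b9, Cidec, Xlr4a (1.19) and an unnamed probe among the higher, and Cxcl13 (-1.08), Marco and Lor (-1.001) among the lower. The unnamed probe, ILMN_2835423, differed by 1.70, with PAL_430_01 at 5.98 and the other low livers at 7.73 to 9.84. Xlr4a, Cxcl13 and Lor were not examined with single arrays left out. Tceal8, at 7.88 ± 0.48 in high and 6.93 ± 0.47 in low livers (SD, n = 6 each), differed by 0.95 (0.43 to 1.46, adjusted p = 0.636), just short of 2-fold.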

How the data were processed

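Liver RNA of 14 mice was measured on Illumina beadchips, 7 arrays for each diet. The authors' deposited non-normalized table gives linear intensities, 1 for each probe of an array, each with a detection p-value in the next column, per the file headers. Between 23.0% and 26.4% of an array's intensities lay below 0, so background had been subtracted before deposit. The deposited series table holds the authors' normalized intensities, with a median of 21 on every array and values of 2 to 23062, made by a method that the sources used here do not state. Columns of the 2 tables were joined by rank correlation, 14 of 14 within the same diet.

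Of 25697 probes 23978 carry 1 gene symbol and 1719 none. Intensities were processed with limma 3.58.1 (R 4.3.3) by its neqc function (background from detection p-values, offset of 16, quantile normalization, log2). Probes were kept at a detection p-value under 0.05 on at least 7 of 14 arrays, which left 11628. The brightest probe of each gene gave 8828 features without Cidea, 8145 of them named. The 12 arrays were fitted with lmFit and eBayes, class and diet as terms, two-sided, with Benjamini-Hochberg adjustment over all features and a threshold of 0.05. A second fit added the interaction with diet. The offset draws differences of dim probes toward 0. Arrays hold no counts; their number sets the precision. The test was tried on simulated data.

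The comparison and the gene lists were chosen with earlier results of these data known. The rule for named genes took 5 features with the smallest p in each direction, all measured members of the droplet, lipase and PPAR gamma lists, up to 4 members of other described lists by p, and 9 further metabolic genes (Srebf1, Scd1, Fasn, Mlxipl, Ppara, Hsd3b5, Socs2, Fgf21 and Pck1). Which lists are described, the other genes named (among them Orm1, Saa1, Hp, Fgg, Crp, Tceal8, Chil1, Rdh16 and the remaining genes without overlap or past 2-fold), and the promoters and motifs were chosen after values had been seen. Lists are described by counts and medians, with no set test. Alternatives were other background, scaling, filter and model settings, the authors' values, a fit on the Cidea level, each diet alone, each array left out, and arrays with muscle or pancreas transcripts left out. The fits on the Cidea level with arrays left out, and lists under other settings and with arrays left out, were added after seeing the data. A random block for the number in the column name used statmod 1.5.0. The slide of an array is not stated, and a slide block was not fitted.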

Additional observations from a re-analysis of the deposited data

Results flagged for a closer look

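Each class was searched for a liver far from the other 5 in every named gene and in the marker means, and 19 of 210 groups held 1, where chance gives about 1 in 20. The values in this paragraph are log2 intensities. SUC_424_02, of the high class, stood apart in 6 genes: Aup1 at 10.92, Lipa, a lysosomal lipase, at 9.76, and Dbi, the acyl-CoA binding protein, at 14.10 were the highest of the class, while Decr1, of fatty acid oxidation, at 8.25, Apom at 9.56 and the insulin receptor adaptor Irs2 at 5.30 were the lowest. PAL_430_04, also high, was lowest for Slc27a4 at 5.29 and for the cholesterol synthesis gene Msmo1 at 8.50. PAL_429_03 was lowest of the high class for Cyp2a5 at 11.33.

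In the low class, SUC_423_04 was highest for Abhd5 at 7.40 and Cyp2c38 at 5.37 and lowest for Orm1 at 11.68. PAL_430_01 was highest for Osbpl3 at 7.00 and lowest for Slc25a20 at 11.53 and for the male-specific Hsd3b5 at 4.32. SUC_408_02 was lowest for Trib3 at 4.72 and PAL_407_04 for Irs1 at 4.60.

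The mean of the skeletal muscle markers was 7.67 on PAL_429_03, against 4.54 on the next high liver. The mean of the pancreas markers was 8.31 on SUC_415_02, against 4.84 on the next low liver. Among the data that the comparison leaves out, the middle sucrose liver SUC_421_03 had a pancreas marker mean of 5.90, above the median of 4.76 over all arrays.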

How the results depend on the processing

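No alternative of the high and low split, each array left out and each diet alone among them, called a feature. The Cidea level as a slope over 14 arrays called 2, and 1 without arrays with muscle or pancreas transcripts; leaving out 1 array gave 0 to 6 with that slope. The interaction called 0 features with the authors' values, with no filter and with each array left out. Of 1639 values of 103 named genes under 16 other settings, 37 turned sign, in 21 genes. With median scaling these were Aup1 at 0.012, Hilpda at 0.020 and Lpl at 0.017; without background correction, Hsd3b5 at -0.073; with array weights, Plin5 at 0.0017, Hsd17b11 at -0.086, Pnpla8 at -0.011, Aadac at -0.031, Hsd3b5 at -0.43 and Socs2 at -0.11; on the slope, Aup1 at 0.00099, Plin3 at -0.0053, Hsd3b5 at -0.061, Socs2 at -0.048 and Pck1 at 0.0074. With sucrose arrays alone they were Aup1 at 0.026, Hilpda at 0.052, Mgll at -0.0030, Pparg at -0.050, Hsd3b5 at -0.90 and Socs2 at -0.068, and with palatinose arrays alone Cideb at -0.000050, Plin3 at -0.020, Hsd17b11 at -0.16, Lipa at -0.035, Pnpla8 at -0.025, Nsdhl at -0.0084, Fasn at -0.014, Ppara at -0.021 and Pck1 at 0.031. Without arrays with muscle or pancreas transcripts they were Plin3 at -0.074, Aadac at -0.013, Pnpla2 at -0.0091, Srebf1 at -0.0026, Scd1 at -0.011 and Socs2 at -0.12, and with the random block Fasn at -0.00099. Leaving out 1 array turned 16 genes, over ranges of -0.0085 to 0.056 for Cideb, -0.060 to 0.085 for Plin3, -0.051 to 0.10 for Pnpla2, -0.19 to 0.19 for Lpl, -0.078 to 0.080 for Hsd17b11, -0.021 to 0.13 for Srebf1, -1.04 to 0.41 for Hsd3b5, -0.23 to 0.15 for Pck1, -0.037 to 0.14 for Aadac, -0.12 to 0.042 for Hilpda, -0.022 to 0.086 for Fasn, -0.0064 to 0.23 for Ppara, -0.17 to 0.32 for Socs2, -0.032 to 0.11 for Ces1d, -0.060 to 0.0066 for Aup1 and -0.0072 to 0.14 for Scd1. The cause was not tested. Median scaling put the median of all features at 0.034.

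No paired analysis was possible because the columns carry no replicate number and the classes are not labelled groups. The number in the column name, shared by 4 of the fitted arrays, gave a consensus correlation of 0.38 as a random block, with 0 calls.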
